A study of Mus musculus with 54 samples.

Results

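Slc13a3, 1 of the 16632 genes in the count table of this series, encodes the sodium-coupled dicarboxylate transporter NaDC3. The gene was selected on measured values: it was chosen by the gap between alpha-synuclein-loaded donor cells and acceptor cells that was still present after 300 min of co-culture, so that gap is described below without a test. The cells were primary microglia from neonatal C57BL/6 mice. They were grown in flasks holding the cells of 2 brains, with L929 cell supernatant in the medium, and were shaken off a layer of astrocytes before use. Donor microglia received 1 µM alpha-synuclein (aSyn) carrying the fluorescent dye Atto-488 for 14 h, and acceptor microglia were stained with CellTracer Violet. Donors and acceptors were then cultured together and separated again by flow cytometry at 15, 30, 60, 150 or 300 min. With the groups labelled 0 min, there were 6 donor and 6 acceptor groups. Untreated microglia (Untreated_Ctrl) and aSyn-treated microglia without co-culture (aSyn_Donor) made up the other groups, and the labels used here do not say whether these cells passed the sorter. The 0 min groups are not described in the protocol text. All groups came from the same strain, and no label names a genetic change.

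The 54 libraries were 3′ mRNA libraries, and their deposited totals ran from 7807389 to 15537493 reads. Labels give replicate numbers 1 to 4. Untreated libraries sharing a number (replicates 2 and 4) were summed, which left 52 samples. Each group had 4 samples except Donors at 0 and 60 min and Acceptors at 0 and 300 min, which had 3. Nothing in the labels says that samples of a group came from separate animals or cultures, so the p-values measure the spread between these samples, which may be technical. Levels are given as CPM, the read count scaled to a common library size, after TMM scaling, which corrects the library totals for differences in composition.

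NaDC3 sits in the plasma membrane and moves succinate, alpha-ketoglutarate and other dicarboxylates into the cell together with sodium ions. It also carries N-acetylaspartate, and itaconate, a product of activated macrophages, has been reported as a substrate. It is best known in the kidney proximal tubule, and in brain it is known from astrocytes.

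In GENCODE M21 on GRCm38 (mm10), Slc13a3 (ENSMUSG00000018459.15) lies on the minus strand at chr2:165405028-165473230. It has 2 protein-coding transcripts, with 13 and 12 exons, which share their start site and end at 165405028 and 165405295. The counts do not separate these transcripts. An antisense gene, Gm14437, lies on the plus strand within the locus at chr2:165442264-165450485 and begins 37236 bases from the Slc13a3 3′ end. It has no row in the count table, and whether the counting used strand is not given in the sources used here.

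The 217 bases upstream of the GENCODE start site (sequence from RefSeq, GRCm38.p6, chr2:165473231-165473447, minus strand) are shown because they are the nearest regulatory sequence of a gene whose level differed with aSyn exposure. Capitals mark 2 motif matches found by searching both strands of the 250 bases before the RefSeq start site, which lies further downstream.
Slc13a3 promoter: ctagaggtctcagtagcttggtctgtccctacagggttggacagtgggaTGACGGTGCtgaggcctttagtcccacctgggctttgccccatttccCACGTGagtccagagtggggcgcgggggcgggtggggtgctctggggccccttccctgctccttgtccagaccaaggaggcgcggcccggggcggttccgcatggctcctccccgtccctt

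The first match is to TGACNNNGC, the core of the antioxidant response element bound by Nrf2, and starts at position -201 from the RefSeq start site. Of 32851 promoter windows of the same length, 10.2% hold this motif. The second is the E-box CACGTG, recognised by MITF and TFE family factors among others, at position -154, which 6.02% of windows hold. No match was found for the AP-1 site TGANTCA (6.75% of windows), the PU.1 core GAGGAAG (10.6%), the NF-kB consensus (7.25%) or the LXR response element of DR4 type (0.0152%). The matches do not overlap each other, and none was tested for binding.

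Slc13a3 was low in untreated microglia and in acceptors, and several-fold higher in every group that had received aSyn. Untreated cells had 4.54, 3.44, 7.37 and 2.90 CPM in replicates 1 to 4. These levels rested on 45, 79, 86 and 77 reads. Cells given aSyn without co-culture had 20.04, 34.5, 45.9 and 45.1 CPM, from 272, 486, 577 and 517 reads. Every aSyn-treated sample was above every untreated sample.

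The mean rose from 4.56 ± 1.99 CPM (SD, n = 4) to 36.4 ± 12.1 CPM (SD, n = 4), a log2 fold change of 3.02 with a standard error of 0.542 (95% interval 1.92 to 4.11, adjusted p = 0.00121, edgeR quasi-likelihood test with Benjamini-Hochberg adjustment over the 13169 genes tested). This contrast passed the threshold of 0.05 in 2.5% of all genes, and in the upward direction in 1.6%. Slc13a3 was 18th of all genes by p and 106th by log2 fold change. Donors had received the same aSyn treatment, so choosing the gene on the donor gap favours a high rank here. Within replicate numbers the ratio of aSyn-treated to untreated cells was 4.41, 10.0, 6.22 and 15.6, so it was above 1 in 4 of 4. In bulk libraries, a change in the number of cells of a type and a change in RNA per cell cannot be told apart. Summed CPM of 10 astrocyte markers ran from 11.3 to 148 in untreated samples (median 49.5) and from 11.3 to 31 in aSyn-treated samples (median 15.3), so the groups overlapped. In edgeR 0 of the 10 markers passed, with 4 at an unadjusted p under 0.05, while 5 passed as lower with the replicate block and DESeq2 called 1. Of all 13169 genes, 2254 had an unadjusted p under 0.05, 10.2% passed as lower with the block and DESeq2 called 603. The part of other cell types in the Slc13a3 level was not tested.

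Donor levels lay around those of cells given aSyn alone at every co-culture time. At 0 min donors had 19.1, 31.4 and 57.1 CPM in replicates 1 to 3. At 15 min the values were 27.5, 26.5, 75.2 and 39.2 CPM in replicates 1 to 4. At 30 min they were 25.5, 27.2, 78.8 and 50.1 CPM. Replicate 3 was the highest at each of these times. At 60 min, replicates 1, 3 and 4 had 31.6, 72.5 and 40.4 CPM. At 150 min the values were 21.8, 33.2, 65.9 and 47.1 CPM, and at 300 min they were 30.9, 31.4, 71.02 and 47.1 CPM. Read counts behind these 22 donor samples ran from 218 to 1109.

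Acceptor levels lay around those of untreated cells. At 0 min they had 4.63, 2.42 and 8.25 CPM in replicates 1 to 3. At 15 min the values were 3.19, 4.13, 7.37 and 5.08 CPM. At 30 min they were 2.56, 3.48, 13.1 and 3.81 CPM, so replicate 3 stood well above the other three samples of that group. At 60 min they were 3.25, 1.62, 8.63 and 3.05 CPM, and at 150 min 2.64, 4.66, 9.16 and 2.13 CPM. At 300 min replicates 1, 2 and 4 had 2.99, 4.53 and 3.75 CPM. The lowest count was 20 reads, in replicate 2 at 60 min, for which the exact 95% Poisson interval was 12.2 to 30.9 reads. Such intervals cover counting error only, since no molecular identifiers are named.

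**Figure D1:**
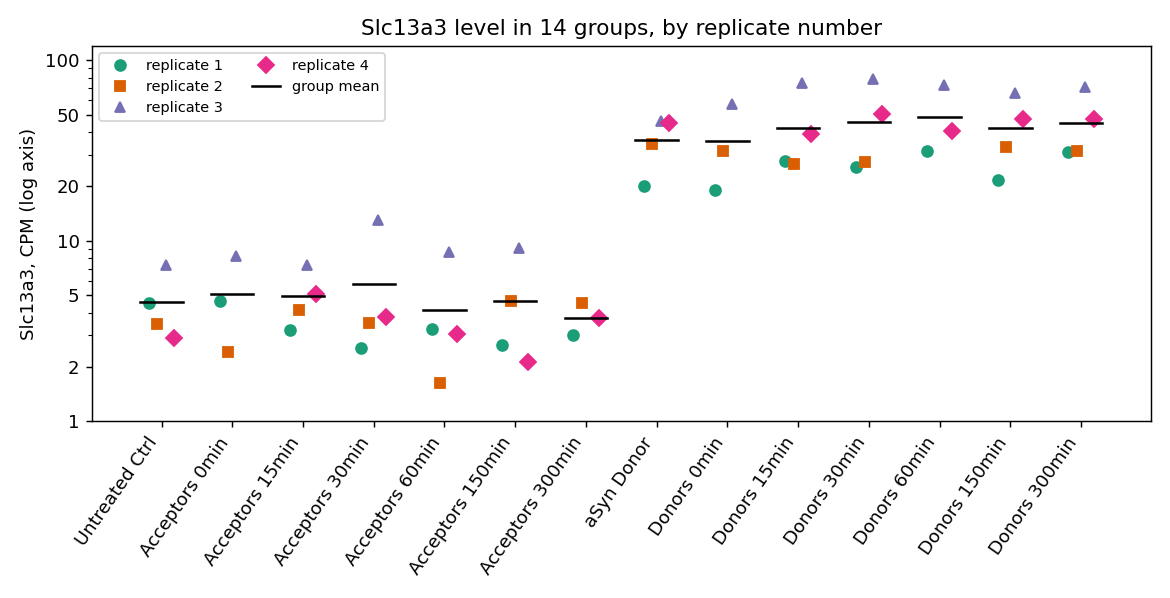
Slc13a3 in CPM (log axis) in the 14 groups, with a point for each sample, its colour and shape giving the replicate number, and a bar at the group mean. The 26 untreated and acceptor samples lie between 1.62 and 13.1 CPM, and the 26 aSyn-treated and donor samples between 19.1 and 78.8 CPM.

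Ordered by mean, the groups formed a high set and a low set. Donors at 60 min (48.2 ± 21.5 CPM, SD, n = 3) were followed by donors at 30 min (45.4 ± 24.9, SD, n = 4), 300 min (45.1 ± 18.9, SD, n = 4), 15 min (42.1 ± 22.8, SD, n = 4) and 150 min (42.0 ± 19.0, SD, n = 4). Cells with aSyn alone came next, and then donors at 0 min (35.9 ± 19.4, SD, n = 3). Between these and the next group the mean dropped by 30.1 CPM, which was 1.55 times the larger SD of the pair. The low set began with acceptors at 30 min (5.74 ± 4.93, SD, n = 4), 0 min (5.10 ± 2.95, SD, n = 3), 15 min (4.94 ± 1.79, SD, n = 4) and 150 min (4.65 ± 3.20, SD, n = 4). Untreated cells followed, and acceptors at 60 min (4.14 ± 3.08, SD, n = 4) and 300 min (3.76 ± 0.767, SD, n = 3) closed the order. All other neighbours in the order differed by no more than 0.295 of the larger SD, so the order within each set is not resolved.

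For the loaded cells, donors were compared with cells given aSyn alone. Whether the latter were sorted is not given, so the comparison cannot isolate co-culture. None of the 5 times from 0 to 150 min passed the test. The log2 fold change was -0.02 (SE 0.531, 95% interval -1.09 to 1.05) at 0 min and 0.21 (SE 0.491, -0.78 to 1.20) at 15 min. It was 0.32 (SE 0.491, -0.67 to 1.31) at 30 min, 0.41 (SE 0.528, -0.66 to 1.47) at 60 min and 0.21 (SE 0.491, -0.78 to 1.20) at 150 min. Adjusted p was 1 at each time (edgeR quasi-likelihood test, Benjamini-Hochberg). The intervals do not reach the rise of 3.02 measured for aSyn alone, but they leave room for changes of somewhat more than 1 log2 unit upward. With the replicate number as a block the intervals were narrower, and the highest upper limit was at 60 min (-0.262 to 0.735). These contrasts called 0% of all genes at each of the 5 times, with 119 to 344 genes at an unadjusted p under 0.05. DESeq2 called 1 gene at 0 min and 0 at the other times, and with the replicate block the share was again 0% at each time, with 406 to 725 genes at an unadjusted p under 0.05. Against the aSyn-treated sample of the same number, donors were higher in 1 of 3, 2 of 4, 3 of 4, 2 of 3 and 3 of 4 replicates from 0 to 150 min, and in 3 of 4 at 300 min (ratios 0.909 to 1.55).

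The matching comparison set acceptors against untreated cells. Acceptors had also been stained and sorted, and sorting of the untreated cells is not given, so the comparison cannot isolate contact with loaded cells. Slc13a3 did not pass the test at any of the same 5 times. The log2 fold change was 0.19 (SE 0.57, 95% interval -0.96 to 1.34, adjusted p = 0.986) at 0 min and 0.15 (SE 0.532, -0.92 to 1.22, adjusted p = 0.993) at 15 min. It was 0.35 (SE 0.525, -0.71 to 1.41, adjusted p = 0.971) at 30 min and -0.11 (SE 0.533, -1.19 to 0.96, adjusted p = 0.991) at 60 min. At 150 min it was 0.07 (SE 0.528, -1 to 1.13, adjusted p = 0.992). The share of all genes called was 0% at 0 and 15 min, 0.114% at 30 min, 0.0683% at 60 min and 0.137% at 150 min. With the replicate number as a block it was 0.995%, 2.25%, 3.6%, 4% and 4.78% from 0 to 150 min, and Slc13a3 did not pass at any of these times (adjusted p 0.735 to 0.995, edgeR). At 0 and 15 min, 749 and 839 genes had an unadjusted p under 0.05, and DESeq2 called 1 and 34 genes. Acceptors were above the untreated sample of their number in 2 of 3, 2 of 4, 3 of 4, 2 of 4 and 2 of 4 replicates. At 300 min this held in 2 of 3 (ratios 0.659 to 1.31).

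**Figure D2:**
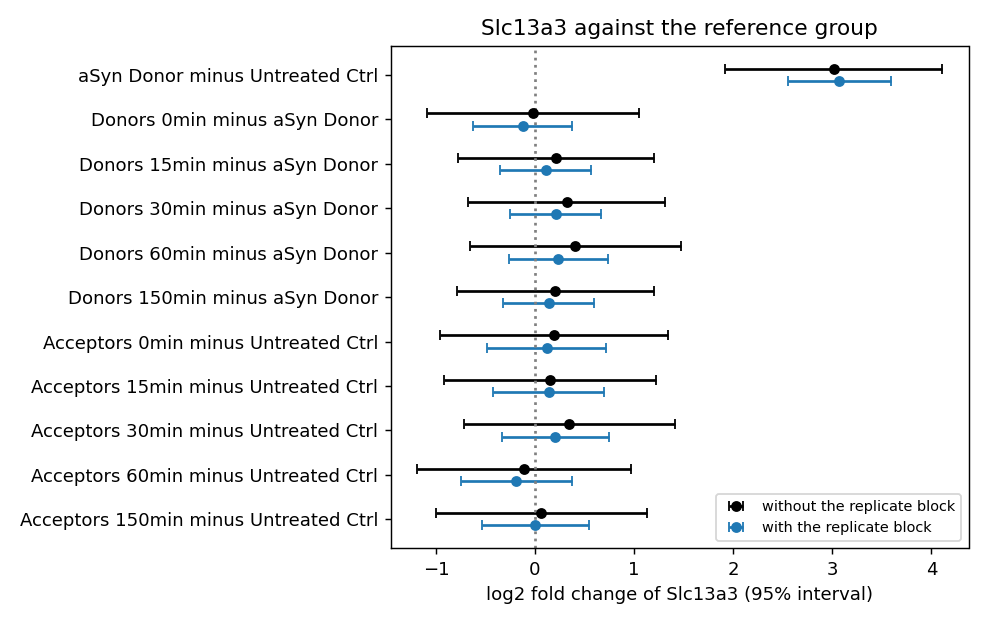
Log2 fold change of Slc13a3 with its 95% interval for aSyn-treated against untreated cells, for donors against aSyn-treated cells and for acceptors against untreated cells. Black points come from the fit without and blue points from the fit with the replicate number as a block; only aSyn-treated against untreated cells, at 3.02 and 3.07, lies clear of 0.

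Time within each population was tested with an F test over 0 to 150 min. Between the highest and the lowest fitted time, Slc13a3 differed by 0.42 log2 units in donors and by 0.46 in acceptors. Adjusted p was 1 in both populations (edgeR quasi-likelihood F test, Benjamini-Hochberg). Over all genes the median of this difference was 0.38 in donors and 0.37 in acceptors, so Slc13a3 was close to the typical gene. The F test called 0.00759% of all genes in donors and 0% in acceptors, where 223 genes had an unadjusted p under 0.05 and DESeq2 called 1. With the replicate block the shares were 0.0152% in donors and 0% in acceptors, where 760 genes had an unadjusted p under 0.05.

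The donor level exceeded the acceptor level in all 21 pairs that share a time and a replicate number, with ratios from 4.12 to 22.1. These values chose the gene, and they are given as a description. At 300 min the ratio was 10.3 in replicate 1, 6.93 in replicate 2 and 12.6 in replicate 4, and no acceptor sample of replicate 3 was used at that time. The lowest donor at 300 min had 30.9 CPM and the highest acceptor 4.53 CPM. The mean log2 ratio was 2.85 ± 0.83 (SD, n = 3) at 0 min, 3.02 ± 0.28 (SD, n = 4) at 15 min and 3.15 ± 0.48 (SD, n = 4) at 30 min. It was 3.36 ± 0.34 (SD, n = 3) at 60 min, 3.30 ± 0.78 (SD, n = 4) at 150 min and 3.27 ± 0.44 (SD, n = 3) at 300 min. The largest ratio, 22.1, came from replicate 4 at 150 min, where the acceptor value rested on 27 reads. Across all times the lowest donor (19.1 CPM) was above the highest acceptor (13.1 CPM). The same contrast called 0.251%, 0.888%, 0.805%, 0.418%, 0.167% and 0.0304% of all genes from 0 to 300 min. With the replicate block the shares were 4.28%, 9.57%, 10.8%, 6.7%, 5.19% and 1.38%, and nothing is read from those shares for the gene chosen on them.

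**Figure D3:**
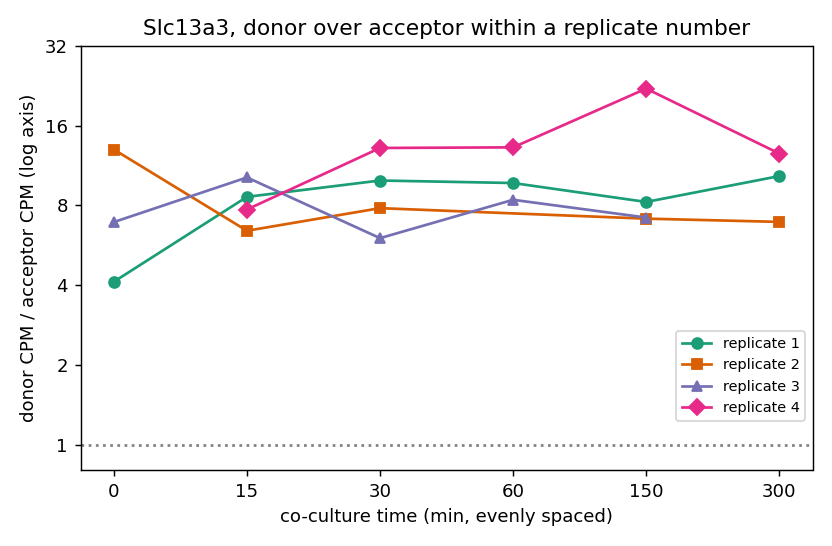
Donor CPM divided by acceptor CPM of Slc13a3 (log axis) for each replicate number over co-culture time in min, with a dotted line at 1. All 21 ratios lie between 4.12 and 22.1; at 300 min they are 10.3, 6.93 and 12.6.

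Replicate numbers differed in the Slc13a3 level on both sides of the gap. Replicate 3 had the highest value in 13 of the 13 groups that include it. Donors of replicate 3 ran from 57.1 to 78.8 CPM, against 19.1 to 31.6 in replicate 1, 26.5 to 33.2 in replicate 2 and 39.2 to 50.1 in replicate 4. Acceptors of replicate 3 ran from 7.37 to 13.1 CPM, against 2.56 to 4.63, 1.62 to 4.66 and 2.13 to 5.08 in replicates 1, 2 and 4. Group alone accounted for 86.8% of the variance of Slc13a3 log2 CPM and replicate number alone for 12.7%. The group share includes the gap that the gene was chosen for, so a large value follows from that choice and is a description. The labels give the passage as 3 for replicate 1, 1 for replicate 2 and 2 for replicates 3 and 4. Replicates 3 and 4 share a passage, and their Slc13a3 levels did not overlap in donors or in acceptors. Passages 3 and 1 each stand for 1 replicate number, and the part of passage in the Slc13a3 level was not tested. Reads of the ribosomal transcript Rn45s made up 18.2% of the total on average in replicate 4 and 6.602% in the others. Their part in the Slc13a3 level was not tested.

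Lists were made of the SLC13 family, other carboxylate carriers and genes of linked metabolism, and not every member carries or uses an Slc13a3 substrate. Of the 65 members tested, without Slc13a3, 2 passed in aSyn-treated against untreated cells. That is 3.08% of the members, close to the 2.5% of all genes called. Of the SLC13 family, 4 of 5 genes were in the table. Slc13a2, a sodium-coupled dicarboxylate transporter of kidney and intestine, had 0.556 ± 0.24 CPM in untreated and 0.293 ± 0.293 CPM in aSyn-treated cells (SD, n = 4 each) and never more than 18 reads. Its log2 fold change was -0.88 (SE 1.12, adjusted p = 0.74, edgeR). The sulfate transporters Slc13a1 and Slc13a4 had at most 8 and 6 reads in any sample and were not tested.

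The other lists were read the same way, in aSyn-treated against untreated cells. Among 17 tested carriers of other carboxylates, such as the mitochondrial and plasma-membrane carriers of citrate, malate, glutamate, lactate and pyruvate, 0 passed the edgeR test, with 6 at an unadjusted p under 0.05. DESeq2 called 1 of them, Slc7a11. Of all 13169 genes tested, 2254 had an unadjusted p under 0.05 and DESeq2 called 603. The list's median log2 fold change was 0.01, and that of all genes was -0.04. The list members with the highest CPM in untreated cells were the oxoglutarate-malate carrier Slc25a11, at 115 ± 4.66 and 115 ± 12.5 CPM (SD, n = 4 each), and Slc16a10, an aromatic amino acid transporter of the monocarboxylate family. Slc16a10 had 83.6 ± 17.8 CPM in untreated and 66.3 ± 1.39 CPM in aSyn-treated cells (SD, n = 4 each, adjusted p = 0.255, edgeR). Slc7a11, the cystine-glutamate antiporter, was singled out after its values were seen. It had 2.93, 1.70, 6.34 and 5.47 CPM in untreated and 29.4, 15.4, 123 and 284 CPM in aSyn-treated cells. The samples of the groups did not overlap, and the log2 fold change was 4.78 (SE 1.45, adjusted p = 0.0651, edgeR).

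Of 33 tricarboxylic acid cycle and linked enzymes, all tested, 1 rose and 0 fell. The list's median was -0.05. The riser was Dlst, which encodes the succinyltransferase subunit of the alpha-ketoglutarate dehydrogenase complex. Dlst had 51.9, 54.9, 48.8 and 52.7 CPM in untreated and 63.1, 68.9, 62.2 and 67.0 CPM in aSyn-treated cells. The groups did not overlap, and the log2 fold change was 0.33 (SE 0.0834, adjusted p = 0.0222, edgeR). The call of Dlst was lost without replicate 1 (adjusted p = 0.0872), replicate 2 (0.0806) or replicate 3 (0.201).

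Of 12 genes of itaconate and succinate handling, 9 were tested, and 1 rose, none fell and the median was 0.18. The riser was Acod1, which makes itaconate from cis-aconitate. Acod1 had 6.15, 92.9, 39.3 and 10.8 CPM in untreated and 147, 300, 343 and 1360 CPM in aSyn-treated cells. The highest untreated sample was below the lowest aSyn-treated one, and the log2 fold change was 3.84 (SE 0.96, adjusted p = 0.0198, edgeR). Without replicate 3, Acod1 did not pass (adjusted p = 0.188). In acceptors at 300 min, Acod1 had 31.4 and 70.5 CPM in replicates 1 and 2 and 619 CPM in replicate 4, a sample in which Slc13a3 stood at 3.75 CPM. This is 1 sample, and its Slc7a11 level was also the highest of the group (97.2 CPM, against 9.62 and 1.54 CPM in replicates 1 and 2). Whether Acod1 and Slc13a3 levels are linked was not tested. Sucnr1, the succinate receptor, had at most 3 reads in any sample and was not tested.

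Of 7 genes of N-acetylaspartate handling, 6 were in the table and 5 tested. In edgeR 0 passed, with 1 at an unadjusted p under 0.05 and 0 in DESeq2, and the median was -0.64. Over all 13169 genes, 2254 had an unadjusted p under 0.05 and DESeq2 called 603. Nat8l, which makes N-acetylaspartate, had 10.8 ± 4.67 CPM in untreated and 6.18 ± 3.59 CPM in aSyn-treated cells (SD, n = 4 each). Its log2 fold change was -0.80 (SE 0.636, adjusted p = 0.557, edgeR). Acss2, which makes acetyl-CoA from acetate, had 3.53 ± 1.25 and 7.06 ± 1.97 CPM (SD, n = 4 each, adjusted p = 0.195, edgeR). Aspa, which cleaves N-acetylaspartate, had at most 20 reads in any sample (log2 fold change 1.47, SE 1.47, adjusted p = 0.655, edgeR).

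With the replicate number as a block, aSyn-treated against untreated cells called 19.2% of all genes, and 15 of the list members passed in place of 2. These were 8 higher (Slc7a11, Slc16a6, Dlst, Pdhb, Sdhb, Acod1, Phyhd1 and Acss2) and 7 lower (Slc25a13, Slc16a7, Slc1a1, Slc1a2, Slc1a3, Idh2 and Glud1). The glutamate transporters Slc1a2 and Slc1a3 are also on the astrocyte marker list. In donors against acceptors at 300 min, 0 members of these lists passed without the block, where 0.0304% of all genes passed. Of the members, 7 had an unadjusted p under 0.05 and DESeq2 called 0. The matching numbers over all genes were not counted, so nothing is read from them. With the block, which called 1.38% of all genes in that contrast, 1 passed: Phyhd1, a dioxygenase that uses alpha-ketoglutarate, at 21.3 ± 7.04 CPM in donors (SD, n = 4) and 7.32 ± 3.47 CPM in acceptors (SD, n = 3).

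**Figure D4:**
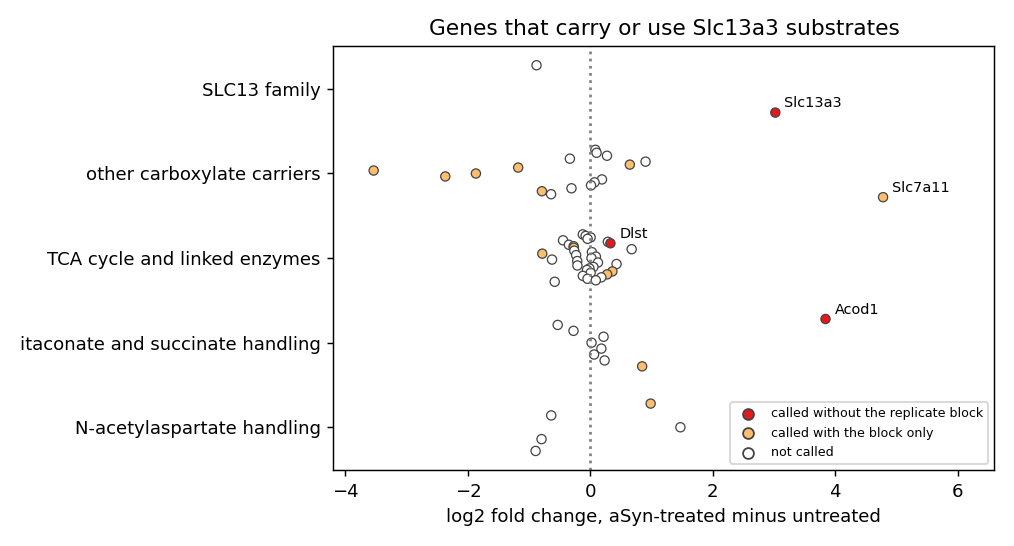
Log2 difference between aSyn-treated and untreated cells for each tested gene of the 5 lists, 1 point a gene. Red points passed without the replicate block, orange ones only with it and white ones in neither; Slc13a3 at 3.02, Acod1 at 3.84 and Dlst at 0.33 are red, and Slc7a11 at 4.78 is orange.

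Of the genes with a row in the count table, the nearest to Slc13a3 showed a like split. Ocstamp, which encodes a transmembrane protein needed for cell fusion in osteoclasts and macrophage giant cells, lies at chr2:165393760-165400405 on the same strand, 4622 bases beyond the Slc13a3 3′ end. It had 3, 0, 0 and 3 reads in untreated samples, where a count of 0 allows up to 3 reads, and 0.104 ± 0.143 CPM (SD, n = 4). In aSyn-treated cells it had 7.44, 6.25, 0.636 and 2.79 CPM. The groups did not overlap, and the log2 fold change was 5.43 (SE 1.10, adjusted p = 0.00295, edgeR). The call held without each replicate in turn (adjusted p 0.0112 to 0.0432). Untreated and acceptor samples had 0 to 11 reads, with 0 in 13 of 26, and aSyn-treated and donor samples had 5 to 101.

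Although both genes were higher on the loaded side, replicate numbers ranked in opposite orders there. Median Slc13a3 was 25.5, 31.4, 71 and 46.1 CPM in replicates 1 to 4, over 7, 6, 7 and 6 aSyn-treated and donor samples. Median Ocstamp in the same samples was 6.27, 3.88, 1.35 and 2.82 CPM. Replicate 3 was thus highest for Slc13a3 and lowest for Ocstamp. The difference between replicate numbers was not tested.

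**Figure D5:**
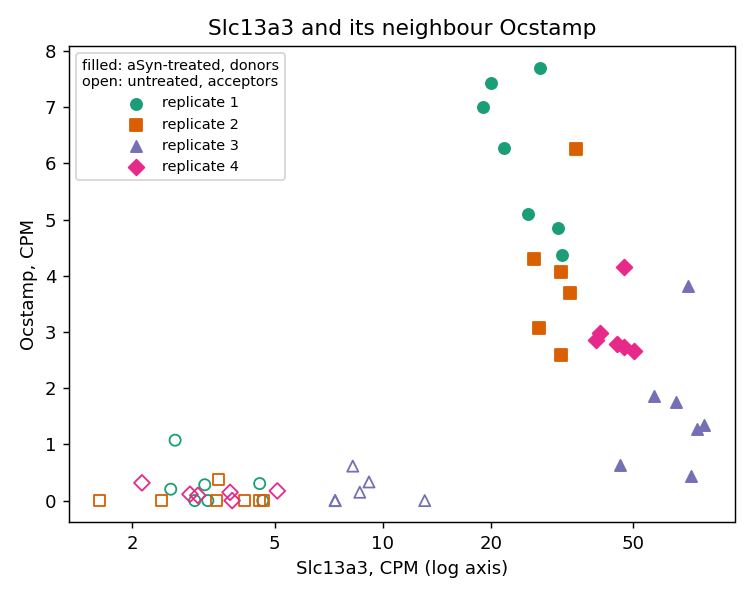
Ocstamp CPM against Slc13a3 CPM (log axis) in the 52 samples, filled for aSyn-treated and donor samples and open for untreated and acceptor samples, with shape and colour giving the replicate number. Among the filled points, replicate 3 (Slc13a3 median 71 CPM) lies lowest for Ocstamp (median 1.35 CPM) and replicate 1 (25.5 CPM) highest (6.27 CPM).

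Of the 5 genes on each side of Slc13a3 that are in the table, 8 were tested. Ocstamp was the 1 that passed in aSyn-treated against untreated cells without the replicate block, where 2.5% of all genes were called. It had passed the filter on low counts through the groups where it is high, so nothing is read from this call. On the far side of the start site, Trp53rka, a homologue of a p53-regulating kinase, had a log2 fold change of 0.24 (SE 0.18, adjusted p = 0.517, edgeR). Slc2a10 and Eya2 had at most 3 and 4 reads. Elmo2, an engulfment adaptor upstream of Rac, had 42.5 ± 2.50 CPM in untreated and 31.8 ± 6.85 CPM in aSyn-treated cells (SD, n = 4 each, adjusted p = 0.3, edgeR). With the replicate block, Elmo2 (adjusted p = 0.0124, edgeR) and the nucleotide-sugar transporter family member Slc35c2 (adjusted p = 0.00473, edgeR) passed as well, both lower in aSyn-treated cells. That fit called 19.2% of all genes, so nothing about the locus is read from these calls. Slc35c2 had 49.8 ± 10.8 CPM in untreated and 38.4 ± 8.66 CPM in aSyn-treated cells (SD, n = 4 each).

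Genes with the pattern most like that of Slc13a3 were named by Pearson r over the 14 group means of log2 CPM, after the replicate number had been removed. The points share libraries and fall into a high and a low set, so r mostly reflects that split: of 13168 genes compared, 556 had r over 0.9 and 622 had r under -0.9. The highest were Itgal, the alpha chain of the integrin LFA-1 (r = 0.9908), Acp2, a lysosomal acid phosphatase (0.9901), and Nr1h3, the oxysterol receptor LXR alpha (0.9897). Fam49a, a regulator of Rac1 (0.9896), the proteasome subunit Psmb5 (0.9883) and the peroxisomal thiolase Acaa1a (0.9855) came next. Rac2, a GTPase of blood cells (0.9848), and the membrane metalloproteinase Mmp14 (0.9832) closed the list of 8. Opposite in pattern were Reps2, an endocytic adaptor (-0.9874), the lysosomal fucosidase Fuca1 (-0.9866), the protease inhibitor cystatin C, Cst3 (-0.985), and the microtubule regulator Stmn1 (-0.9848).

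These genes were picked on means that include the untreated and aSyn-treated groups, so their levels are a description without a test. Nr1h3 had 4.24, 9.77, 12.9 and 4.11 CPM in untreated and 27.4, 30.5, 17.7 and 34.6 CPM in aSyn-treated cells. In Nr1h3, replicate 3 was the lowest aSyn-treated sample, whereas it was the highest for Slc13a3. Itgal had 14.6 ± 8.90 CPM in untreated and 105 ± 83.5 CPM in aSyn-treated cells (SD, n = 4 each), and Acp2 had 187 ± 59.0 and 340 ± 59.5 CPM (SD, n = 4 each). Acp2 and Nr1h3 lie 50 bases apart on opposite strands of chromosome 2, with their start sites as the near ends, and do not overlap. Acp2 overlaps Ddb2 and Acaa1a overlaps Myd88, both on opposite strands. Reads of these overlapping pairs may be mixed if strand was not used. Over the 52 samples with the replicate number kept, r was 0.9188 for Itgal, 0.8523 for Acp2 and 0.8839 for Nr1h3. By that measure Clec4n, the receptor Dectin-2 (0.9353), and the adhesion receptor Adgre5 (0.9294) came before Itgal. The sets of 8 under the 2 measures shared 1 gene.

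Markers of microglia were present in every sample, and markers of other brain cells were detected too. All 10 microglial markers were detected, with a summed level of 4306 to 7416 CPM in untreated, 2197 to 5552 in aSyn-treated, 1969 to 7581 in donor and 3723 to 8662 in acceptor samples. The 10 astrocyte markers summed to 8.79 to 35.9 CPM in donors and 7.8 to 42.9 CPM in acceptors, with medians of 15.5 and 15.4. Oligodendrocyte lineage markers summed to 114.5 to 565.6 CPM in untreated, 78.3 to 238.8 in aSyn-treated, 64.2 to 168 in donor and 70.04 to 265.1 in acceptor samples. Neuronal markers (5 of 5 in the table) ran to at most 30, 3.34, 9.17 and 21.5 CPM in the same order. Fibroblast, mural and endothelial markers (5 of 6) ran to at most 17.8, 12.9, 16.4 and 25.7 CPM. Of that list Pecam1, an adhesion molecule of endothelium and also of myeloid cells, rose with aSyn from 0.297 ± 0.243 to 1.81 ± 0.666 CPM (SD, n = 4 each). Its log2 fold change was 2.53 (SE 0.701, adjusted p = 0.0389, edgeR), and it had at most 39 reads in any sample. The call was lost without any 1 of the replicates (adjusted p 0.0749 to 0.153). It was the 1 marker of the 5 lists that passed in this contrast without the replicate block, where 2.5% of all genes passed. None of these markers was at 0 in every sample.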

How the data were processed

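The authors deposited whole-number read counts per gene, used here for every test, and a normalized signal table. Each value of the deposited signal table equalled the count divided by a per-sample size factor (100% of values, within 0.0501). STAR, Partek, DESeq2 and mm10 are named per the submitters' processing notes, without versions; the annotation and use of strand are not given in the sources used here. Labels give 50-base single reads.

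Untreated libraries sharing a number were summed (chi-square per degree of freedom 10.3 and 12.1, against 24.2 to 288 for other untreated pairs). Libraries sharing a number thus differed by more than counting error, though by less than the other pairs. Genes passing filterByExpr (minimum count 10) were fitted with edgeR 4.0.16 (R 4.3.3; limma 3.58.1 for the likeness means, prior count 2) on all 14 groups, without a block. Same-numbered samples deviated together (mean r 0.339 to 0.593 over comparisons, lowest single r 0.199), so the numbers were taken to pair samples. The main fit leaves this pairing out, and its standard errors for Slc13a3 were larger than those of the fit with the block. For acceptors at 60 min against untreated cells they were 0.533 and 0.276. DESeq2 1.42.0 was an alternative. Promoters are RefSeq.

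Slc13a3, the lists and the tests were chosen with earlier results of these data known. Rule for named genes: the 8 most and 4 least alike, 5 neighbours a side, up to 4 called members a list or the 2 highest, and Acod1, Sucnr1, Nat8l and Aspa.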

Additional observations from a re-analysis of the deposited data

Results flagged for a closer look

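In acceptors at 30 min, the sample of replicate 3 (13.1 CPM, 172 reads) lay far from the other three samples of its group (2.56, 3.48 and 3.81 CPM). Its gap to the nearest of them was 0.882 of the group's range, above Dixon's critical value for 4 samples. Slc13a3 was checked this way in 10 groups of 4, and chance flags about 1 in 20 groups. Replicate 3 was also the highest sample in the 12 other groups that include it.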

How the results depend on the processing

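The rise of Slc13a3 in aSyn-treated against untreated cells passed under all 11 alternatives (log2 fold change 2.74 to 3.24, adjusted p 6.15e-11 to 0.0283). With the replicate block it was 3.07 (adjusted p = 6.15e-11, edgeR), and the block changed no call for Slc13a3. The other 12 tests of Slc13a3 gave 132 alternative values, of which 0 passed (smallest adjusted p 0.735) and 11 changed sign around 0; the cause was not tested. Leaving out 1 replicate number at a time gave -0.39 to 0.10 for donors at 0 min and -0.10 to 0.36 at 15 min against aSyn-treated cells. Against untreated cells, acceptors ranged from -0.0368 to 0.41 at 0 min, -0.0221 to 0.32 at 15 min, -0.12 to 0.61 at 30 min, -0.44 to 0.0455 at 60 min and -0.18 to 0.26 at 150 min. With the untreated libraries kept apart, acceptors at 60 min were at 0.0217. List members called in aSyn-treated against untreated cells numbered 2, against 15 with the replicate block, 4 with untreated libraries kept apart, 0 with only the compared groups fitted, 5 in DESeq2 (4 higher, 1 lower) and 0 to 2 when 1 replicate number was left out (0 without replicate 3, 1 without replicate 1). In donors against acceptors at 300 min the number was 0, and 1 with the replicate block. The 8 genes most like Slc13a3 shared 7 with those at a prior count of 0.5, 1 with those over 52 samples and 2 with those over the 12 co-culture means. Depth limits the low groups most: 20 to 172 reads lay behind each untreated or acceptor value.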
